A study of Mus musculus with 7 samples.

Results

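A set of 10 blood transcription factor genes was followed: Gata2, Tal1, Lmo2, Lyl1, Runx1, Fli1, Meis1, Myb, Ikzf1 and Gfi1b. They were taken by symbol from the annotation of a mouse Illumina bead array, which gave 12 of its 25697 probes and 10 of its 16593 named genes. Myb and Ikzf1 had 2 probes each, and each of the other 8 genes had 1. Each probe was read on all 7 arrays of a study of induced pluripotent stem cells (iPSCs) made from mouse bone marrow, whose title concerns turning such cells back into blood.

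All cells came from OG2 mice, the only genotype that the labels give; OG2 is known as a strain with a GFP reporter driven by Pou5f1 regulatory sequence. LinNeg_iPSC denotes iPSCs made from lineage-negative marrow cells, that is, marrow depleted of cells with mature blood surface markers, as lines 1.1.2, 7 and 9 (3 arrays). LinPos_iPSC is line 1.1, made from lineage-positive marrow cells (1 array), MEF_iPSC denotes iPSCs made from mouse embryonic fibroblasts (1 array), and ESC denotes embryonic stem cells (1 array). LinNeg_BM denotes the lineage-negative marrow cells themselves (1 array). The labels give no animal age, reprogramming method or number of animals, describe each sample as 1 biological replicate, and list bone marrow as the tissue of all 7 samples, the ESC and MEF_iPSC samples included. Each iPSC line may trace to 1 clone, which the labels do not state. Since LinNeg_iPSC alone has replicates, every p-value below rests on the spread between its 3 lines (or between pooled pluripotent arrays where said). That spread is drawn by limma toward the spread of all genes tested, and the lone arrays are assumed to vary alike. For a gene below background on the lines, it is a spread of values that are only bounds.

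These factors act early in blood formation, where several of them occupy the same enhancers. The GATA factor Gata2, the basic helix-loop-helix factors Tal1 and Lyl1 and the bridging protein Lmo2 form one complex on DNA, and Runx1 and the ETS factor Fli1 bind beside it. Meis1, Myb, Ikzf1 and Gfi1b are further regulators of stem cells, progenitors and the first lineage choices, and pluripotent cells are not known for a blood program built on these factors.

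Promoter sequence was held for 8 of the 10 genes, as 12 windows that each run over the 250 bases before a RefSeq start site (build GRCm38.p6). Those of Gfi1b, Tal1 start 1, Meis1 and both Gata2 starts are printed 5′ to 3′ on the strand of the gene. Gfi1b, Tal1 and Meis1 hold matches to the members' own motifs, and Gata2 and Meis1 are the members with signal in pluripotent cells. Lyl1 and Runx1 start 2 hold such matches too and are not printed. Capitals mark matches to the GATA core GATAA, which reads TTATC where it lies on the other strand, to the ETS core CGGAAG, there read as CTTCCG, and to the RUNX core TGTGGT, there read as ACCACA. The windows lie at chr2:28621983-28622232 on the minus strand (Gfi1b), chr4:115056176-115056425 on the plus strand (Tal1), chr11:19018970-19019219 on the minus strand (Meis1), and chr6:88193641-88193890 and chr6:88198414-88198663 on the plus strand (Gata2 starts 1 and 2).
Gfi1b: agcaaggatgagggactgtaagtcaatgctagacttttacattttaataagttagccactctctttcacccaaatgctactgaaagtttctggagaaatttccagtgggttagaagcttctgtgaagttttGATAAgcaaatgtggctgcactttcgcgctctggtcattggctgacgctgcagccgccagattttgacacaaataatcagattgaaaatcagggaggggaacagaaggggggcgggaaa
Tal1 start 1: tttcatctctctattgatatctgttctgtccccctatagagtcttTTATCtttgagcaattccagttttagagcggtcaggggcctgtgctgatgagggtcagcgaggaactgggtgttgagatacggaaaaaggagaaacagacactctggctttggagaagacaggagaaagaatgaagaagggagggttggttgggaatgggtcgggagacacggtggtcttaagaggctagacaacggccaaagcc
Meis1: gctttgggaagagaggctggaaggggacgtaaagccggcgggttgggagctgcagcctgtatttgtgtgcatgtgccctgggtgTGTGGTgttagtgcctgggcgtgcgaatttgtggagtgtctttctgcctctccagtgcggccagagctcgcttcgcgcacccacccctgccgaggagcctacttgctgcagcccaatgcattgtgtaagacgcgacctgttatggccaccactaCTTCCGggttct
Gata2 start 1: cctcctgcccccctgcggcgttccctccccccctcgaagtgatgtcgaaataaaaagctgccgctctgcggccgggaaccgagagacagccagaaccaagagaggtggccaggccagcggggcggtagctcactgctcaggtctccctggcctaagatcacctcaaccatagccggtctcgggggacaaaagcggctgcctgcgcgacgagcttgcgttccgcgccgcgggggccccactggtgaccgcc
Gata2 start 2: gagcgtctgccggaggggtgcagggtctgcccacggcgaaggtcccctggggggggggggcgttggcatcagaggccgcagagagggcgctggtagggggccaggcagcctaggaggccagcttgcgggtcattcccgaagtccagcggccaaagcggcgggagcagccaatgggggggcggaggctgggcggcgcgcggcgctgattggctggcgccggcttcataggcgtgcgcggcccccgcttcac

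The Gfi1b window holds GATAA at positions -119 to -115, counted from the start site. An E-box, CANNTG, which reads the same on both strands and is the site of Tal1 and Lyl1 dimers with E proteins, follows at -113 to -108, and another lies at -180 to -175. Tal1 start 1 holds TTATC at -205 to -201. Meis1 holds TGTGGT at -166 to -161 and CTTCCG at -12 to -7, and Lyl1 holds CTTCCG at -182 to -177. Over all 12 windows the GATA core was found in 2, the E-box in 4, the ETS core in 2 and the RUNX core in 1. Among the 32851 windows of all genes, 22.6% hold the GATA core, 66.2% the E-box, 13.6% the ETS core and 14.0% the RUNX core. These are matches of letters, not measured sites.

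The windows also differ widely in base composition. Both Gata2 starts are rich in CpG, with 22 and 24 CpG dinucleotides and 67.2% and 74.0% G or C, against a median of 6 CpG and 52.4% over all windows. The Myb window has 40 CpG and 81.2% G or C, and Ikzf1 start 1 has 44 and 82.0%. Gfi1b with 5 CpG, Lyl1 with 5, Ikzf1 start 2 with 1 and Runx1 start 2 with 2 lie at or below that median, as does Tal1 start 1 with 6. Genes with CpG-rich and CpG-poor windows both appear among the members that were below background in pluripotent cells, as given next.

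**Figure D1:**
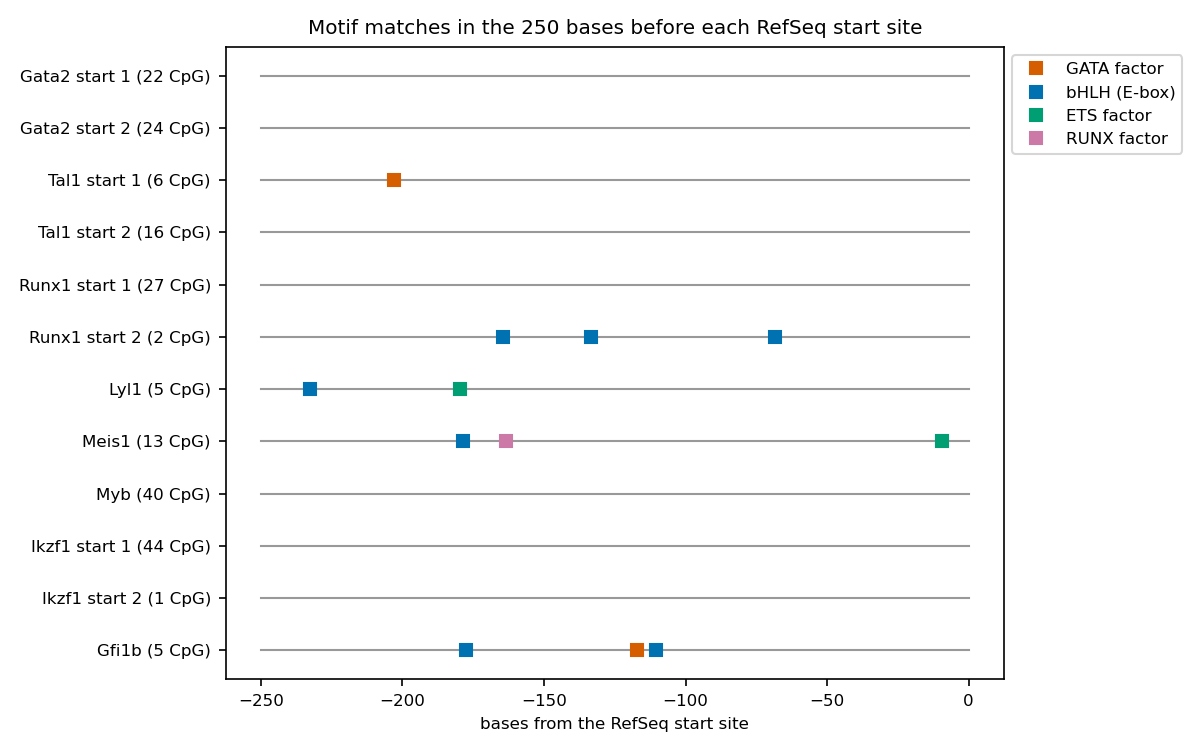
Each line is 1 of the 12 windows of 250 bases before a RefSeq start site, with distance from the start in bases on the x axis, and squares mark matches to the 4 motifs. Gfi1b carries a GATA core and 2 E-boxes, Tal1 start 1 a GATA core, and neither Gata2 start carries any of the 4.

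The arrays were alike in the share of probes with signal: 10423 to 10904 probes, 40.56% to 42.43%, were above background, here a detection p under 0.01. LinNeg_iPSC line 9 was dimmer, with a median raw intensity of 103, against 121.3 to 134.9 on the other arrays. Raw intensities given below, single or summed, are not corrected for this. The number of arrays limits the precision. The pluripotency list met the labels, with 10 or 11 of its 11 matched genes above background on each of the 6 pluripotent arrays and 2 in LinNeg_BM. The stem cell factor Pou5f1 was at 12.95, 12.87 and 12.83 (normalized log2 intensity) in LinNeg_iPSC lines 1.1.2, 7 and 9, 13.06 in LinPos_iPSC, 12.56 in MEF_iPSC and 12.95 in ESC, against 4.49 in LinNeg_BM, where it was not above background. Of 9 matched mature lineage genes, LinNeg_BM had 4 above background, and the other 5, Cd4, Cd8a, Itgam, Klrb1c and Ms4a1, were so on no array. The 4 were led by the B cell receptor component Cd79a at 8.92 and the T cell receptor component Cd3d at 6.42, although a lineage depletion removes cells with such markers at the surface. The rest were the general leukocyte antigen Ptprc at 6.05 and Cd3e at 5.88. Cd3e was no lower in ESC, at 6.02, and line 1.1.2, at 5.89. Cd79a was also above background in MEF_iPSC, at 6.44, and ESC, at 5.74.

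In the LinNeg_iPSC lines most of the blood factors were not above background. Of the 10, 1, 2 and 1 were above background in lines 1.1.2, 7 and 9, and 2 each in LinPos_iPSC, MEF_iPSC and ESC, against all 10 in LinNeg_BM. Those with signal in pluripotent cells were Meis1, on all 6 pluripotent arrays, and Gata2, on 4 of them. The other 8 genes were above background on no pluripotent array but were so in LinNeg_BM, a pattern that 8.83% of the 9263 genes tested share. In bulk RNA, fewer cells of a type and less RNA per cell cannot be told apart, so the levels in LinNeg_BM describe a mixture.

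Against LinNeg_BM, 10 of 10 members passed the test as lower in the lines (limma across 9263 genes, Benjamini-Hochberg adjusted p from 2.78e-05 for Lmo2 to 0.00363 for Myb), where 29.9% of all genes tested passed as lower and 59.5% passed in either direction. That count supports nothing by itself, because 8 of the 10 entered the test only through their signal in LinNeg_BM and so had to be lower elsewhere. The sizes describe these genes, but for those 8 the sign was set by the same filter. The members' median log2 difference, LinNeg_iPSC minus LinNeg_BM, was -5.36, or -4.34 with dim values at their bound. Over all genes tested the median was 0.02. Nothing is read from that contrast, since genes at large were not selected through LinNeg_BM. Where a probe was not above background on any line, the fold is a lower bound: the brighter group's mean is set against the mean, per array, of the higher of the lowest normalized level above background (5.50 to 5.67 on the log2 scale) and the probe's own level.

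**Figure D2:**
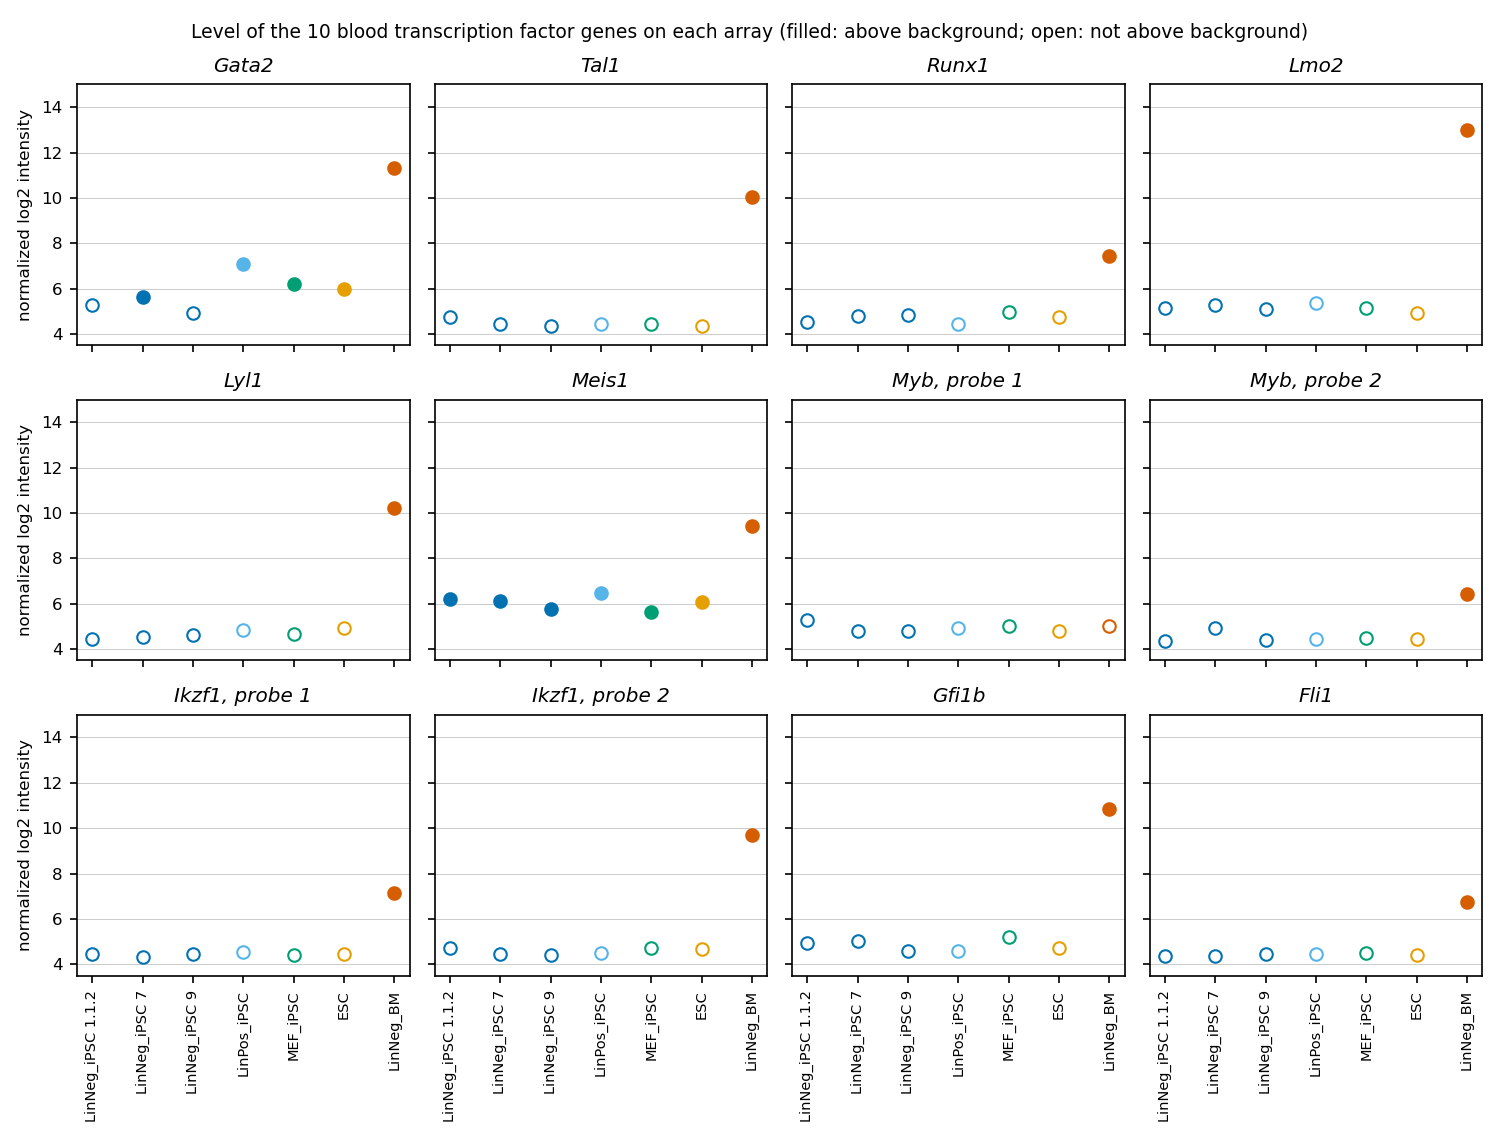
Each panel plots the normalized log2 intensity (y axis) of 1 probe of the 10 genes on each of the 7 arrays (x axis), with filled points above background and open points not above it. LinNeg_BM is the highest array in every panel except Myb probe 1, and in the other arrays only Gata2 and Meis1 have filled points.

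Lmo2, the LIM-only protein that bridges Tal1 and GATA factors, had the highest bound of the 10 on its fold below LinNeg_BM. It was at 5.13, 5.28 and 5.09 in LinNeg_iPSC lines 1.1.2, 7 and 9, 5.35 in LinPos_iPSC, 5.16 in MEF_iPSC and 4.92 in ESC, against 13.01 in LinNeg_BM. None of the 6 pluripotent arrays was above background, and they lay within 0.43 log2 of each other. The lines averaged 5.16 ± 0.10 (SD, n = 3), a log2 difference from LinNeg_BM of -7.85 (SE 0.17, limma adjusted p = 2.78e-05), at least 177-fold lower. At the looser detection p of 0.05, Lmo2 would count as above background in line 7, LinPos_iPSC and MEF_iPSC, with detection p-values of 0.0313, 0.0238 and 0.0439.

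Tal1, the helix-loop-helix factor that starts blood formation in the embryo, was at 4.73, 4.45 and 4.35 in lines 1.1.2, 7 and 9, 4.42 in LinPos_iPSC, 4.44 in MEF_iPSC and 4.34 in ESC, against 10.06 in LinNeg_BM. The 6 pluripotent values are all below background, and the groups do not overlap. The difference between the lines, at 4.51 ± 0.20 (SD, n = 3), and LinNeg_BM was -5.55 log2 (SE 0.21, limma adjusted p = 6.04e-05), at least 22.9-fold lower. Its paralog Lyl1, which can stand in for part of Tal1's work in adult stem cells, was at 4.44, 4.54 and 4.60 in the lines, 4.86 in LinPos_iPSC, 4.67 in MEF_iPSC and 4.93 in ESC, against 10.21 in LinNeg_BM. Lyl1 was likewise below background on every pluripotent array, and the lines, at 4.53 ± 0.08, were at least 25.4-fold lower (log2 difference -5.68, SE 0.17, limma adjusted p = 3.81e-05). Lyl1 lies on chromosome 8, whose 332 genes above background on all arrays had a median 0.09, 0.25 and 0.37 log2 above ESC in lines 1.1.2, 7 and 9, 0.03 above it in LinPos_iPSC and 0.42 above it in MEF_iPSC, against -0.04 to -0.01 for the other chromosomes. The part of this shift in the Lyl1 levels was not tested.

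Gata2, the zinc finger factor that maintains blood stem cells, was at 5.28, 5.61 and 4.91 in lines 1.1.2, 7 and 9, 7.09 in LinPos_iPSC, 6.22 in MEF_iPSC and 5.99 in ESC, against 11.33 in LinNeg_BM. Line 7 was the single LinNeg_iPSC line above background, whereas LinPos_iPSC, MEF_iPSC and ESC all were. The lines averaged 5.26 ± 0.35 (SD, n = 3), which is -6.06 log2 from LinNeg_BM (SE 0.30, limma adjusted p = 9.89e-05), at least 53.8-fold lower.

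Runx1, the partner of Cbfb that is needed for the first blood stem cells to emerge from endothelium, was at 4.52, 4.77 and 4.82 in the lines, 4.44 in LinPos_iPSC, 4.99 in MEF_iPSC and 4.73 in ESC, against 7.43 in LinNeg_BM. The LinNeg_BM signal was itself modest, so the bound is small: the lines, at 4.70 ± 0.16, were at least 3.71-fold lower (log2 difference -2.73, SE 0.19, limma adjusted p = 0.000293). Fli1, an ETS factor of blood, megakaryocytes and endothelium, was at 4.35, 4.38 and 4.47 in the lines, 4.43 in LinPos_iPSC, 4.49 in MEF_iPSC and 4.41 in ESC, against 6.75 in LinNeg_BM. Its pluripotent values spanned the narrowest range of the 8 dim genes, 0.15 log2, and the lines were at least 2.30-fold lower (-2.34 log2, SE 0.16, limma adjusted p = 0.000273).

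Meis1, a homeodomain partner of Pbx and Hox proteins in stem cells, was the member that stayed measurable throughout. It was at 6.22, 6.12 and 5.75 in lines 1.1.2, 7 and 9, 6.49 in LinPos_iPSC, 5.65 in MEF_iPSC and 6.09 in ESC, against 9.42 in LinNeg_BM, with a detection p of at most 0.00627 on every array. The lines, at 6.03 ± 0.25 (SD, n = 3), were 10.4-fold lower than LinNeg_BM, a fold measured on both sides (log2 difference -3.38, SE 0.24, limma adjusted p = 0.000286).

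Gfi1b is a transcriptional repressor that works within the erythroid and megakaryocyte lineages and recruits Kdm1a and Rcor1. It was at 4.96, 5.03 and 4.59 in lines 1.1.2, 7 and 9, 4.58 in LinPos_iPSC, 5.19 in MEF_iPSC and 4.72 in ESC, against 10.87 in LinNeg_BM. All pluripotent arrays were below background, and the lines, at 4.86 ± 0.23, were at least 40.03-fold lower (-6.01 log2, SE 0.23, limma adjusted p = 6.04e-05). MEF_iPSC had the highest of the 6 pluripotent values and would pass the looser detection p of 0.05, at 0.0338.

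Ikzf1, the Ikaros factor of lymphoid and other blood lineages, was read by 2 probes that differed in size and not in direction. Probe 2, which stands for the gene, was at 4.71, 4.45 and 4.41 in the lines, 4.52 in LinPos_iPSC, 4.70 in MEF_iPSC and 4.69 in ESC, against 9.70 in LinNeg_BM. It was at least 17.8-fold lower in the lines (-5.17 log2, SE 0.20, limma adjusted p = 6.01e-05). Probe 1 was at 4.47, 4.30 and 4.47 in the lines, 4.53 in LinPos_iPSC, 4.39 in MEF_iPSC and 4.46 in ESC, against 7.12 in LinNeg_BM, and was at least 2.99-fold lower (-2.71 log2, limma adjusted p = 0.000168 over 12662 probes). Both probes were below background on all 6 pluripotent arrays.

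The probes of Myb, a factor that sustains progenitor expansion, disagreed. Probe 2 was at 4.36, 4.94 and 4.40 in lines 1.1.2, 7 and 9, 4.45 in LinPos_iPSC, 4.47 in MEF_iPSC and 4.43 in ESC, against 6.42 in LinNeg_BM, the one array above background. Probe 1 was not above background on any array, at 5.26, 4.81 and 4.78 in the lines, 4.93 in LinPos_iPSC, 5.02 in MEF_iPSC and 4.80 in ESC, against 5.04 in LinNeg_BM. With probe 2, Myb was at least 1.84-fold lower in the lines, the smallest bound of the 10 (-1.86 log2, SE 0.28, limma adjusted p = 0.00363). Where a looser filter let probe 1 stand for the gene, the difference was -0.09 log2 (adjusted p 0.854 with no filter and 0.795 at a detection p of 0.05), so the Myb call rests on 1 probe.

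With the spread taken over all 6 pluripotent arrays, 10 of 10 members again passed as lower than LinNeg_BM (limma adjusted p from 4.30e-08 to 0.000233), where 28.5% of all genes did. Every pluripotent array lay below LinNeg_BM for 10 of 10 genes, and for 38.2% of all genes tested. Neither count is support, since 8 of the 10 entered the test only through LinNeg_BM, and nothing is read from the contrast with all genes. Gata2 averaged 5.85 ± 0.77 (SD, n = 6) in pluripotent arrays, at least 40.05-fold below LinNeg_BM, and Meis1 averaged 6.05 ± 0.31, 10.3-fold below it. This comparison shares its lines and its LinNeg_BM array with the previous one and is no independent check of it.

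Whether the blood origin of an iPSC line left its mark on these genes is asked by the comparisons among pluripotent cultures. No member passed in any of them. LinNeg_iPSC against ESC gave 0 of 10 members (limma; 0% of all genes passed, and 0 members and 10.3% of all genes had an unadjusted p under 0.05). Against MEF_iPSC it gave 0 of 10 (0.0756% of all genes; 1 member and 13% of genes unadjusted), and against LinPos_iPSC 0 of 10 (0.313% of all genes; 1 member and 16.1% of genes unadjusted). The 4 marrow-derived lines against ESC and MEF_iPSC gave 0 of 10 (0% of all genes; 0 members and 7.04% of genes unadjusted). In both single-member cases the gene was Gata2.

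For 8 of the 10 genes both sides of each of these comparisons were below background, so no fold is given and a difference was not detectable. Their pluripotent levels lay between 4.34 and 5.35 log2, on raw intensities of 78.8 to 132, and the range of a gene over the 6 arrays was at most 0.62 log2. A level below background is a bound and not a zero.

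**Figure D3:**
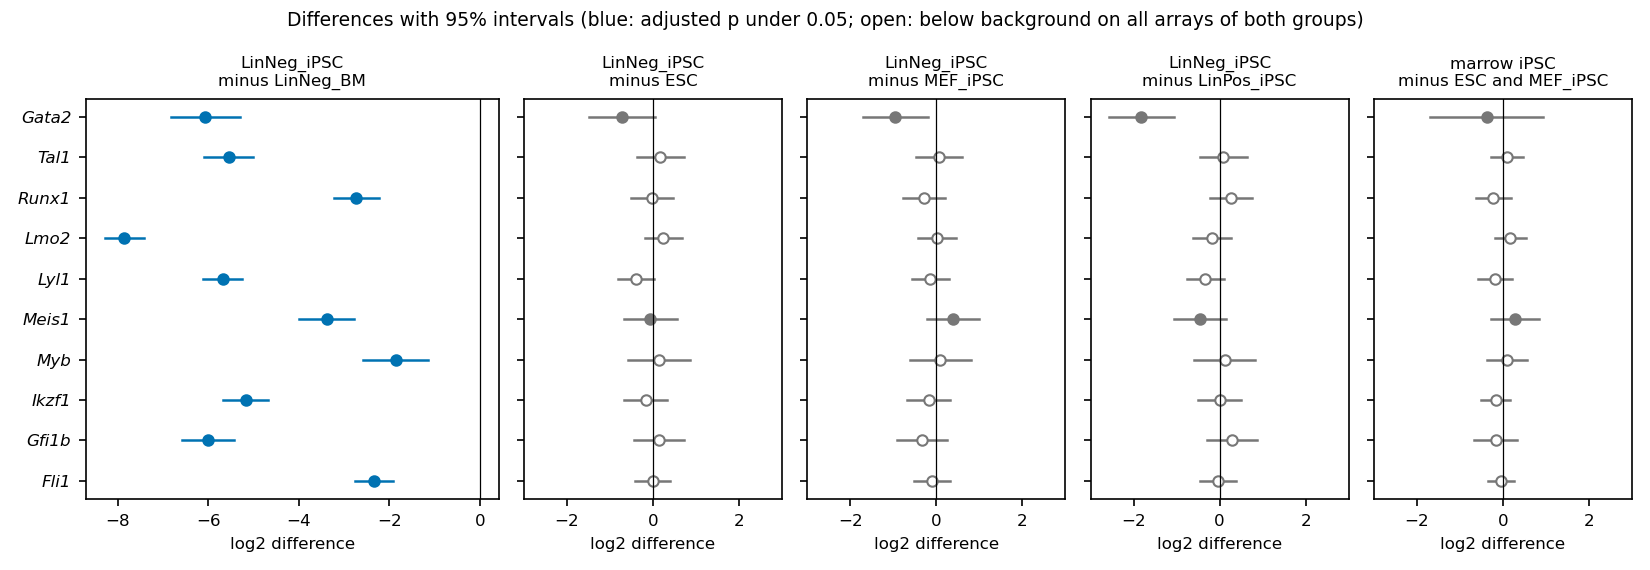
Each panel shows 1 comparison, with the log2 difference on the x axis and the 10 genes down the page, points for differences and bars for 95% intervals. Blue points, all in the LinNeg_BM panel, passed at an adjusted p of 0.05, and open points are genes below background on both sides.

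Of the 2 members with signal in pluripotent cultures, Gata2 had the wider range. Its raw intensity was 128, 140 and 99.96 in LinNeg_iPSC lines 1.1.2, 7 and 9, 223 in LinPos_iPSC, 172 in MEF_iPSC and 162 in ESC, against 3506 in LinNeg_BM. From low to high the order was line 9, line 1.1.2, line 7, ESC, MEF_iPSC, LinPos_iPSC and LinNeg_BM. Beside the SD of the lines, 0.35 log2, the gap between line 1.1.2 and line 7, 0.33, and that between ESC and MEF_iPSC, 0.23, were smaller, the gaps from line 9 to line 1.1.2, 0.37, and from line 7 to ESC, 0.38, were about as large, and the gap from MEF_iPSC to LinPos_iPSC, 0.87, was larger. Lines 9 and 1.1.2 were not above background (detection p of 0.105 and 0.0313), so their order, their gaps and the SD of the lines rest on values that are only bounds.

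All 3 LinNeg_iPSC lines lay below LinPos_iPSC in Gata2, by -1.82 log2 on average (95% interval -2.58 to -1.07, limma adjusted p = 0.0970), which did not pass. With dim values at their bound, the means differed 2.85-fold. The LinPos_iPSC difference passed under 3 of 13 other settings. These were arrays scaled to a common median (-1.80, adjusted p = 0.0458), normexp background correction (-1.05, adjusted p = 0.0231) and none (-0.81, adjusted p = 0.0261). More genes of all kinds passed under those 3 settings than under the main one, as counted in the last section. The difference was -0.95 from MEF_iPSC (interval -1.71 to -0.20, limma adjusted p = 0.315) and -0.72 from ESC (interval -1.48 to 0.04, limma adjusted p = 0.500). With dim values at their bound, the means differed 1.56-fold and 1.33-fold. The bound allows for values below background and not for the spread between arrays, so none of these folds is a minimum. The lines lay below the lone array in each case, as 31.4% of all genes did against LinPos_iPSC, 31.3% against MEF_iPSC and 30.2% against ESC. These 3 differences share the same lines.

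By origin, Gata2 averaged 5.72 ± 0.96 (SD, n = 4) in marrow-derived lines and 6.10 ± 0.16 (n = 2) in ESC and MEF_iPSC, with LinPos_iPSC and the LinNeg_iPSC lines at the 2 ends of the marrow-derived group. The groups overlapped, and the difference was -0.38 (interval -1.69 to 0.93, limma adjusted p = 0.961). It was -0.84 without LinPos_iPSC (adjusted p = 0.478), -0.11 without line 9 and -0.23 without line 1.1.2, and passed in none of these.

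Other marker lists also moved between these arrays. Line 7, the single LinNeg_iPSC line with Gata2 above background, had 7 of 10 matched fibroblast genes above background (Col1a2, Pdgfrb and Postn were so on no array) and a summed raw intensity of 5813 over the 7, against 2824 and 2362 in lines 1.1.2 and 9, with the matrix proteins Dcn at 10.33 (6.27 and 6.98 in the others) and Lum at 6.92 (4.60 and 4.72). LinPos_iPSC, the pluripotent array with the highest Gata2, had the lowest summed raw intensity over the 5 trophoblast and extraembryonic endoderm genes, 2488, against 2812 to 4835 on the other pluripotent arrays. On the normalized log2 scale it was not set apart from MEF_iPSC. The mean of these genes was 7.525 in LinPos_iPSC and 7.534 in MEF_iPSC, and the median 7.15 and 6.92. Endothelial cells also use Gata2, and LinPos_iPSC had 6 of 9 endothelial genes above background at a summed intensity of 3066, inside the 2560 to 4052 of the other pluripotent arrays. The part of these cell types in the Gata2 levels was not tested.

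Meis1 moved less. The order from low to high was MEF_iPSC, line 9, ESC, line 7, line 1.1.2, LinPos_iPSC and LinNeg_BM, and the gaps between neighbouring pluripotent arrays were 0.10, 0.34, 0.03, 0.10 and 0.27 log2, beside an SD of 0.25 between the lines. LinNeg_iPSC minus ESC was -0.06 (interval -0.66 to 0.55, limma adjusted p = 0.958), minus MEF_iPSC 0.38 (interval -0.22 to 0.99, adjusted p = 0.561) and minus LinPos_iPSC -0.46 (interval -1.07 to 0.15, adjusted p = 0.426). These intervals leave room for differences of up to about 1 log2 in either direction. Marrow-derived lines averaged 6.15 ± 0.31 (SD, n = 4), against 5.87 ± 0.31 (n = 2) in ESC and MEF_iPSC, a difference of 0.28 (interval -0.28 to 0.83, limma adjusted p = 0.896). It was 0.50 without ESC, 0.057 without MEF_iPSC and 0.16 without LinPos_iPSC, and passed in none of these.

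**Figure D4:**
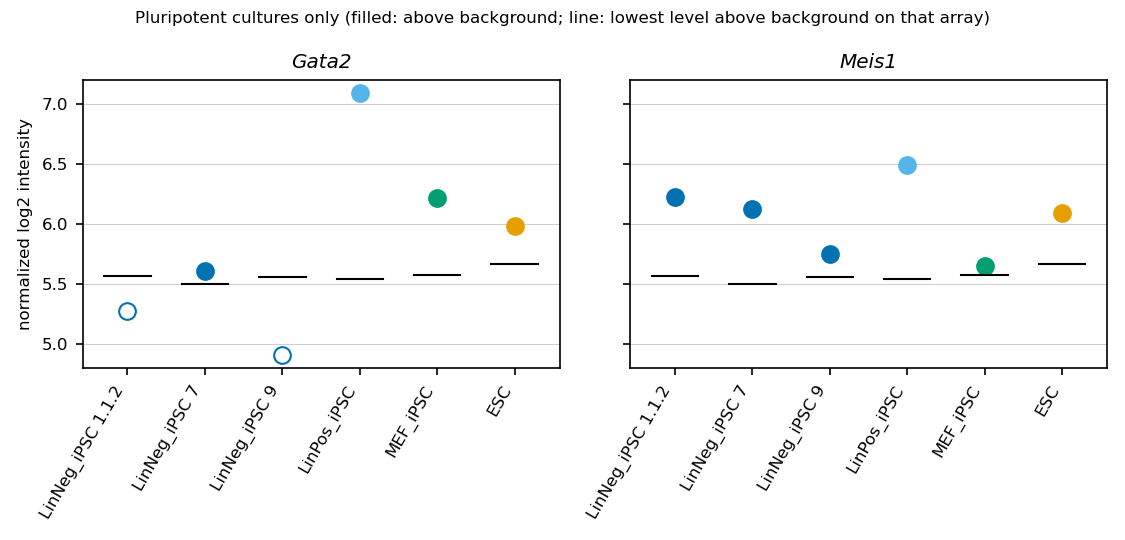
Points give the normalized log2 intensity (y axis) of Gata2 and Meis1 on the 6 pluripotent arrays (x axis), filled where above background, with a bar at the lowest level above background on that array. Gata2 reaches 7.09 in LinPos_iPSC and is below background in lines 1.1.2 and 9, while all Meis1 points are filled, between 5.65 and 6.49.

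Most genes whose proteins work with these factors had signal in the lines as well as in LinNeg_BM, as did most genes tested. Of 20 listed partners and cofactors 17 were matched and tested. In the lines against LinNeg_BM 2 were higher (29.6% of all genes tested were), 9 lower (29.9% of all genes were) and 6 did not pass. Of the 17, Cbfa2t3, among the lower, entered the test only through LinNeg_BM. Cbfa2t2, among the higher, was not above background in LinNeg_BM. Their median difference was -0.51 beside 0.02 over all genes. Cbfa2t3, a corepressor of the Tal1 complex, was at 4.46, 4.69 and 4.58 in the lines, against 10.35 in LinNeg_BM, at least 28.1-fold lower (limma adjusted p = 3.96e-05). Zfpm1, the GATA cofactor known as FOG, was at 9.24, 9.31 and 9.36 in the lines, against 13.31 in LinNeg_BM, and so fell 16.1-fold while remaining measurable (adjusted p = 6.53e-05). Ssbp2, which stabilises the Ldb1 complex, was at least 4.88-fold lower, and Pbx2, a Meis1 partner, was 2.42-fold lower.

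Another 4 of the partners, singled out after their values were seen, were above background on all 3 lines, which Cbfa2t3 and Ssbp2 were not. Ldb1, the dimerising partner of Lmo2, was at 11.63, 11.50 and 11.66 in the lines, against 12.53 in LinNeg_BM, 1.91-fold lower (limma adjusted p = 0.00654). Kdm1a, the demethylase that Gfi1b recruits, was at 11.50, 11.65 and 11.80 in the lines, against 10.40 in LinNeg_BM, 2.37-fold higher (adjusted p = 0.00369). Cbfb, the partner of Runx1, was at 11.35, 11.24 and 11.63 in the lines, against 11.85 in LinNeg_BM, and Rcor1 at 6.88, 6.93 and 6.81, against 7.25, and neither passed (adjusted p = 0.126 and 0.0976). By array, 14 or 15 of the 17 partners were above background in the pluripotent cultures and 15 in LinNeg_BM. Of all genes tested, 78.2% to 82.1% were above background per array, and the partners lie near that share.

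Paralogs of the members went both ways, as genes at large did. Of 10 tested, 3 were higher in the lines than in LinNeg_BM (29.6% of all genes were), 5 lower (29.9% of all genes were) and 2 did not pass. Of the 10, 3 entered the test only through LinNeg_BM, Gfi1 and Gata1 among them. Gata6 and Meis2, both higher, were not above background in LinNeg_BM and passed the filter through pluripotent arrays. The filter thus set the direction of these genes, and the counts support nothing by themselves. Their median difference was -0.60 (-0.30 at the bound). Gfi1, the close relative of Gfi1b, was at 4.81, 4.80 and 4.79 in the lines, against 9.46 in LinNeg_BM, at least 15.1-fold lower, and the erythroid factor Gata1 was at least 4.82-fold lower. Gata6, a factor of extraembryonic endoderm, was at 8.35, 6.22 and 7.69 in lines 1.1.2, 7 and 9, against 4.47 in LinNeg_BM, where it was not above background, at least 3.40-fold higher (limma adjusted p = 0.0259). Mybl2, the cell cycle relative of Myb, was at 12.97, 12.42 and 12.54 in the lines, against 9.80 in LinNeg_BM, 7.21-fold higher.

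Other blood regulators and their usual products were mostly lower in the lines than in LinNeg_BM, where 29.9% of all genes were. Of 15 other blood transcription factors tested, 14 were lower and 1, Mecom, did not pass (limma adjusted p = 0.660), with a median of -3.46 (-2.95 at the bound). Nfe2, a factor of platelet and red cell genes, was at least 99.99-fold lower, the erythroid factor Klf1 at least 48.5-fold, the myeloid factor Irf8 at least 47.0-fold and the globin and lymphoid regulator Bcl11a at least 26.1-fold. Of 15 blood target genes tested 15 were lower (median -5.15, and -4.88 with dim values at their bound). Lower in the lines were the granule enzyme Mpo at least 549-fold, the globin Hba-a1 at least 348-fold, the platelet chemokine Pf4 at least 63.0-fold and the leukocyte actin regulator Coro1a at 97.4-fold. As with the members, 8 of the 15 factors and 10 of the 15 targets entered the test only through LinNeg_BM. These counts and medians therefore support nothing by themselves. Others remained measurable: 4 of the 15 factors, such as Hhex at a mean of 8.08 in the lines and 10.21 in LinNeg_BM, and 2 of the 15 targets were above background on all 3 lines. Flt3, matched among the targets, was above background on no array.

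Lists of other cell types gave mixed counts. Of all genes tested, 29.6% were higher and 29.9% lower in the lines than in LinNeg_BM, and the counts here are small. Of 9 endothelial genes tested 1 was higher in the lines than in LinNeg_BM, 4 lower and 4 did not pass: Vwf was at least 15.7-fold lower, Esam at least 6.35-fold lower and Eng 2.39-fold lower, and the angiopoietin receptor Tek was 3.23-fold higher. Among 4 early mesoderm genes tested 2 were higher and none lower, Pdgfra at least 4.69-fold and Etv2, an ETS factor upstream of blood and endothelium, at least 4.32-fold. Etv2 was at 7.90, 7.79 and 7.61 in the lines, 7.45 in LinPos_iPSC, 8.49 in MEF_iPSC and 7.70 in ESC, against 4.62 in LinNeg_BM. Trophoblast and extraembryonic endoderm genes were higher in 4 of 5, led by the trophoblast factor Tfap2c at least 51.4-fold, and pluripotency genes in 11 of 11. Of 7 fibroblast genes 2 were higher, 1 was lower and 4 did not pass. Above background in LinNeg_BM were 1 of the 4 mesoderm genes (neither Pdgfra nor Etv2), 1 of those 5, 2 of those 11 and 3 of those 7. The rest passed the filter through pluripotent arrays, which favours a higher level there. The counts of higher genes in these 4 lists therefore support nothing by themselves. Mature lineage genes, a list that also holds the general leukocyte antigen Ptprc, were lower in 3 of 4. Of these 4, 2 entered the test only through LinNeg_BM, so this count supports nothing by itself either.

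Among pluripotent cultures, 1 gene of these lists passed in any comparison: Zfp42, a pluripotency marker, was at 12.25, 12.10 and 12.21 in LinNeg_iPSC lines 1.1.2, 7 and 9, against 9.73 in LinPos_iPSC, 5.49-fold higher in the lines (limma adjusted p = 0.0229). With any 1 of the 3 lines left out, 0 of the 9263 genes passed in that comparison, Zfp42 included. LinPos_iPSC is also the pluripotent array with the highest Gata2 level, and how the levels of the 2 genes are related was not tested.

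**Figure D5:**
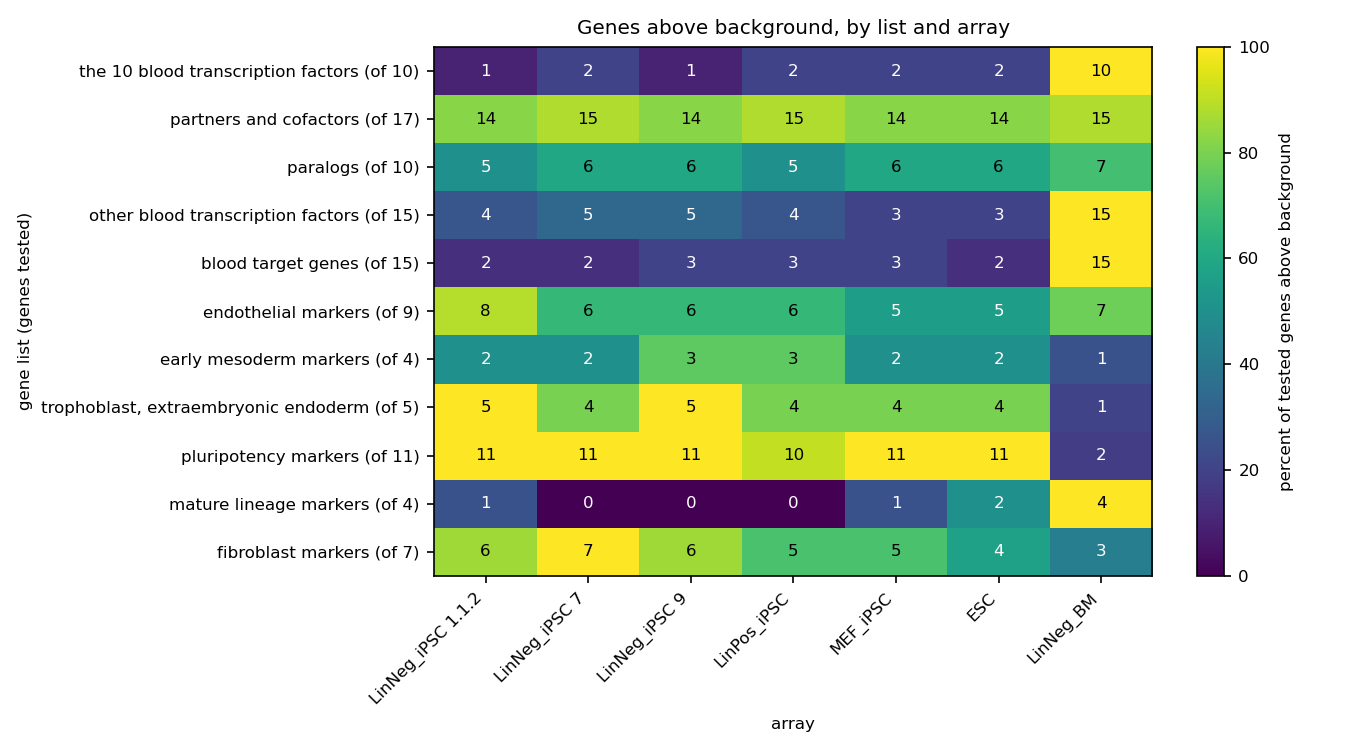
Each cell gives how many tested genes of a list (rows), those above background on at least 1 array, were above background on an array (columns), coloured by percent. The 10 blood factors, the other blood factors and the blood targets are full only in LinNeg_BM. That contrast was set by the filter, since 8 of 10, 8 of 15 and 10 of 15 entered only through LinNeg_BM. Partners and cofactors stay at 14 or 15 of 17 on every array, where 78.2% to 82.1% of all genes tested were above background.

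Over the 7 arrays, the 5 genes with the log2 profile nearest the members' mean profile, each centred on its own mean, were Cd69, Pik3cg, Fcgr3, Icam2 and P2ry1, at Euclidean distances of 0.20, 0.23, 0.23, 0.25 and 0.33 log2. Cd69, an activation marker of lymphocytes, was at 4.48, 4.55 and 4.41 in lines 1.1.2, 7 and 9, 4.49 in LinPos_iPSC, 4.53 in MEF_iPSC and 4.44 in ESC, against 9.15 in LinNeg_BM. All 5 were above background only in LinNeg_BM. Of the members themselves, Ikzf1 lay nearest the mean profile, at 0.59, and Lmo2 farthest, at 3.04, so that the distances mainly follow the size of the step between LinNeg_BM and the other arrays.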

How the data were processed

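Total RNA of 7 cell samples was hybridised as biotin-labelled cRNA to Illumina mouse bead arrays. The authors deposited raw intensity values with a detection p-value per probe, not normalized per the file headers. A table of the authors' processed log2 values was also deposited and served as an alternative; how its background was corrected is not stated per the labels or the file headers. The submitters' processing notes name BeadStudio 3.2, RMA and lumi, with no role or order.

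From the intensities, limma 3.58.1 in R 4.3.3 made background-corrected, quantile-normalized log2 values with neqc (offset 16, negative controls inferred from the detection p-values). Of 25697 probes, 23978 had 1 gene symbol in the platform annotation, none had several and 1719 were not listed, and 23962 matched the RefSeq gene table (GRCm38.p6). A gene was tested if a probe had a detection p under 0.01 on at least 1 array, with the probe of highest mean standing for it. That gave 9263 genes from 13427 probes, and 2445 genes had several such probes. One fit of 5 groups, with 2 residual and 3.16 prior degrees of freedom, gave each LinNeg_iPSC comparison; fits of 3 and 2 classes gave the comparison by origin and that of all pluripotent arrays. Adjusted p-values are Benjamini-Hochberg over all genes tested, with a threshold of 0.05. The median SD between the lines was 0.17 log2.

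The members and gene lists were chosen with earlier results of these data known. Named were all 10 members, up to 4 genes per list with the largest difference from LinNeg_BM, list genes that passed among pluripotent cultures, and the 5 nearest profiles; Ldb1, Kdm1a, Cbfb, Rcor1 and Mecom, and marker genes given beside Gata2 or as array checks, were named after their values were seen. List genes without a matching symbol were not analysed here. Probe sequences were not used here. Alternatives covered scaling, background correction, filters, the choice of probe, and leaving out each replicate; the scripts were tested on simulated data.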

Additional observations from a re-analysis of the deposited data

Results flagged for a closer look

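Of 24 sets of pluripotent or marrow-derived values examined for a sample far from its group, 3 stood out, and chance alone gives such a gap in about 5% of sets. Tal1 in LinNeg_iPSC line 1.1.2 was at 4.73 log2, above the next of the 6 pluripotent arrays at 4.45 and the lowest at 4.34. Its detection p there was 0.219, so it was not above background. Myb probe 2 in LinNeg_iPSC line 7 was at 4.94 log2, both among the 6 pluripotent arrays, where the next was at 4.47, and among the 4 marrow-derived lines, where the next was at 4.45. Its detection p was 0.0852, again not above background. In line 7 the fibroblast genes Dcn and Lum were also high, at 10.33 and 6.92 log2, and their part in the Myb value was not tested.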

How the results depend on the processing

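The limits are those of 7 arrays with 1 replicated group: lone arrays carry no spread of their own, separate animals are not known, and 8 of 10 members are below background wherever cells are pluripotent. No paired analysis was possible because the groups share no replicate numbers that pair their samples, each group other than LinNeg_iPSC having 1 array. The slide as a block was not run, since no slide is given.

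Against LinNeg_BM, 10 members passed under every setting except 3: the filter of above background on at least 3 arrays, which left 2 members tested and 2 passed (also for all pluripotent arrays), and no filter or a detection p of 0.05, where Myb was at -0.09 (-0.10 for all pluripotent arrays) through its other probe. The differences of the other 9 members from LinNeg_BM kept their direction and call in each setting that tested them. Under scaling to a common median, 1989 genes were higher and 3998 lower in the lines than in LinNeg_BM, against 2743 and 2770 under quantile normalization, and 1822 and 3489 against 2500 and 2643 for all pluripotent arrays. That scaling moved the median of all genes to -0.39 against LinNeg_BM, -0.31 for all pluripotent arrays, -0.16 against ESC and -0.12 against LinPos_iPSC, and the filter of 3 arrays moved it to 0.15 against LinNeg_BM.

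Against LinPos_iPSC, 1 member (Gata2) passed with common-median scaling, with normexp and with no background correction. Genes past the test against LinPos_iPSC, 29, became 116 with common-median scaling, 11 with the authors' values, 216 with normexp, 269 with no background correction, 51 with the filter of 3 arrays, 19 with no filter, and 0 to 0 with each line left out. The 7 genes against MEF_iPSC became 22 with common-median scaling, 3 with the authors' values, 91 with normexp, 97 with no background correction, and 0 to 2 without each line. Genes between marrow-derived lines and ESC with MEF_iPSC, 0, became 2 without ESC. Meis1 in the lines minus ESC was 0.083 without line 9 (replicate 3) and -0.15 to 0.083 over the left-out lines; neither value passed. The causes were not tested.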
